A study of Mus musculus with 6 samples.

Results

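The Fos, Jun and Egr families of immediate early transcription factors were described in NIH/3T3 cells after knockdown of Aldoa. The 10 genes Fos, Fosb, Fosl1, Fosl2, Jun, Junb, Jund, Egr1, Egr2 and Egr3 were taken by their symbols from a table of 18001 genes, and all 10 were found in it. NIH/3T3 is an immortalized line of mouse fibroblasts, and Aldoa encodes the glycolytic enzyme aldolase A. The cells grew in medium with serum and received siAldoa, which is a mixture of siRNAs directed at Aldoa, or siCtrl, a mixture of non-targeting siRNAs. Both groups were harvested at 48 h, with 3 replicates each. The study asked whether ALDOA is needed for the expression of growth genes, and the comparison of siAldoa with siCtrl answers for the 10 genes here whether their mRNA differed between the groups. All values come from 1 cell line and 1 siRNA pool per group, at 1 time point, and the values below are of mRNA alone.

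Proteins of the Fos and Jun families are basic leucine zipper factors that pair with each other and form AP-1, which binds short DNA elements in many genes of growth, migration and matrix turnover. Jun proteins can also pair among themselves, whereas Fos proteins need a partner. The Egr proteins are zinc finger factors that bind GC-rich elements, and NAB corepressors hold their activity back. Genes of these families are known for a rapid and short burst of transcription after serum or growth factors reach a resting fibroblast, through MAP kinases acting on SRF, ternary complex factors and CREB. In cells that keep growing, Fosl1, Fosl2, Jun and Jund are the members best known for lasting expression.

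The basic region, with which a Fos or Jun protein touches DNA, is the part the families have most in common, and its coding sequence is shown because it makes the relation of the members visible. Each stretch has 60 bases, read 5′ to 3′ from the GENCODE coding transcript of GRCm38. Among the Fos family genes, capitals mark the bases that differ from Fosl2, the member with the largest increase.
Fosl2: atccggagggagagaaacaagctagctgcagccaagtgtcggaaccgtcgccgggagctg
Fosl1: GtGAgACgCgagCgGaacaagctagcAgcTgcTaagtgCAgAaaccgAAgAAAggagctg
Fosb: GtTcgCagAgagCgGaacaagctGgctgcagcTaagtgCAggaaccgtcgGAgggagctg
Fos: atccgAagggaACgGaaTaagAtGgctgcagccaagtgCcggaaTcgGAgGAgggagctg
These stretches lie at chr5:32150451-32150510 for Fosl2, chr19:5454443-5454502 for Fosl1 and chr12:85475622-85475681 for Fos, all on the plus strand, and at chr7:19306577-19306636 on the minus strand for Fosb.

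In the Jun family, capitals mark the bases that differ from Junb, the only member of that family past the threshold.
Junb: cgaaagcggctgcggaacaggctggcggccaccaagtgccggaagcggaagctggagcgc
Jun: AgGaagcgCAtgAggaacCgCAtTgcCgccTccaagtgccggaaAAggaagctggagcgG
Jund: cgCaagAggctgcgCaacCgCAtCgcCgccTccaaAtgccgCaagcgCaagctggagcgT
They lie at chr8:84977563-84977622 on the minus strand for Junb, chr4:95050435-95050494 on the minus strand for Jun and chr8:70699856-70699915 on the plus strand for Jund. Even here 12 to 19 of the 60 bases differed from Fosl2 in the other Fos family genes, and 13 to 14 differed from Junb in the other Jun family genes. Over whole transcripts the longest identical run between any 2 of the 10 genes was 44 bases, between Egr2 and Egr3, and 20 bases in the next pair, Jun and Jund. A blastn search found no other gene of the table with at least 90% identity over at least 75 bases to any of the 10, apart from genes on the opposite strand of the same locus, named below.

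The deposited values are CPM, a gene's reads relative to the size of its library, which the authors had scaled to an effective size. Every value was a whole multiple of 1 read, and the 6 libraries held between 3692341 and 3771129 reads, so that 3 reads stood for 0.786 to 0.822 CPM. Aldoa was between 522 and 545 CPM in the siCtrl libraries and between 62.9 and 72.0 CPM in the siAldoa libraries, which is 12.7% of the control mean. Replicates 1 and 2 of a group lay closer to each other than to replicate 3, with a chi-square per degree of freedom of 1.11 to 1.12 against 2.07 to 3.24. For the 10 genes, results are given where leaving out replicate 1, 2 or 3 of both groups ends a call. Of the 10, Fosl2 alone was called in each of these 3 settings. Other named genes that lost their call without replicate 3 are listed at the end. Ier2, Myc and Nr4a3, which lost theirs without replicate 1 or 2, are listed there too. The study describes the replicates as biological, but the labels do not say whether they came from separate cultures, so the p-values measure the spread between these libraries. Of 11 fibroblast markers measured, 10 reached 10 CPM, with summed levels of 13366 to 13927 CPM in siCtrl and 11071 to 11757 CPM in siAldoa. Of 10 markers of other cell types none did, and their summed level was 21.96 to 23.3 CPM in siCtrl and 16.8 to 22.4 CPM in siAldoa. Lum, one of the fibroblast markers, and Epcam and Cd3e, of the other cell types, were not analysed here.

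Of the 10 genes, 4 passed limma's test at an adjusted p-value under 0.05, and they moved in both directions. Fosl2 and Junb were higher in siAldoa, and Fosl1 and Egr3 were lower. Over all genes 20.4% were called, 10.4% as higher and 10.0% as lower, against 4, 2 and 2 of these 10. The share called depends on the level of a gene, and among the 10059 genes with a mean of at least 10 CPM it was 32.6%, with 15.9% higher and 16.6% lower. The 10 genes had a median log2 fold change of 0.02, and all genes one of -0.00. A fold change here is a difference of mean log2(CPM + 1), so for weakly expressed genes it comes out smaller than the ratio of their levels, and in such bulk libraries fewer expressing cells and less RNA per cell cannot be told apart.

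**Figure D1:**
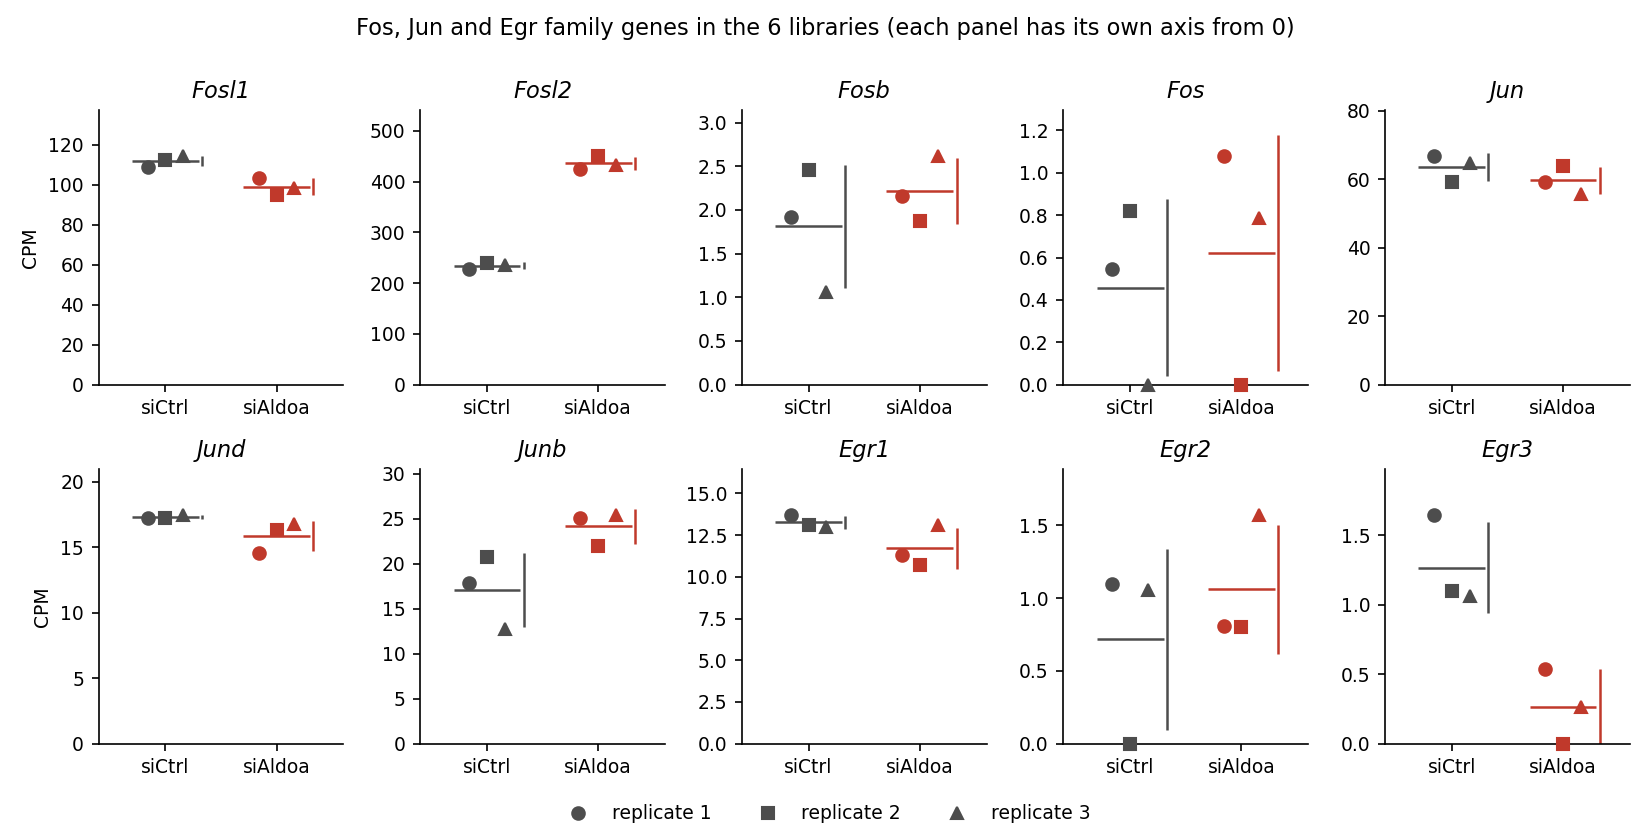
CPM of the 10 genes in each of the 6 libraries, with siCtrl in grey and siAldoa in red. Symbols mark replicates 1 to 3, horizontal lines the group means and vertical lines the SD (cut at 0), and each panel has its own linear axis from 0. The siAldoa libraries lie above all siCtrl libraries for Fosl2 and Junb and below them for Fosl1, Jund and Egr3, while the groups overlap for the other 5 genes.

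Fosl2 (ENSMUSG00000029135), which encodes the Fos protein Fra-2, lies at chr5:32135801-32157842 on the plus strand of GRCm38, and no other annotated gene shares its exons. In siCtrl its level was 227 CPM, 240.5 CPM and 236 CPM, in the order of the replicates. The siAldoa libraries reached 425 CPM, 450.3 CPM and 433 CPM. The groups were far apart, and the libraries within each differed little. The mean rose from 235 ± 6.82 CPM to 436 ± 13.0 CPM (SD, n = 3 each), a ratio of 1.86. The log2 fold change was 0.89 with a standard error of 0.0415 and a 95% interval of 0.81 to 0.98 (limma, adjusted p = 2.23e-13). Fosl2 is the one of the 10 genes that was called under every alternative setting tried, with log2 fold changes of 0.87 to 0.97.

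Fosl1 (ENSMUSG00000024912), which encodes Fra-1, moved the other way and far less. Its level was 109 CPM, 112 CPM and 114 CPM in siCtrl, and 103 CPM, 94.9 CPM and 98.5 CPM in siAldoa. Every siAldoa library was below every siCtrl library, but siAldoa replicate 1 and siCtrl replicate 1 lay close together. The mean fell from 112 ± 2.66 CPM to 98.9 ± 4.26 CPM (SD, n = 3 each), and the log2 fold change was -0.18 with a standard error of 0.0585 and an interval of -0.30 to -0.06 (limma, adjusted p = 0.0345). The call was lost when most single libraries were left out. With libraries left out the log2 fold change stayed between -0.226 and -0.145. The limma adjusted p was 0.0550, 0.0918 and 0.114 without siCtrl replicate 1, 2 or 3, and 0.140 and 0.0883 without siAldoa replicate 2 or 3. It was 0.0734, 0.231 and 0.220 without replicate 1, 2 or 3 of both groups. The adjusted p was 0.0624 with the replicate number as a block, 0.175 without the mean-variance trend and 0.158 with DESeq2. At the locus, chr19:5447547-5455946 on the plus strand, 1163 of the 2033 exonic bases of Fosl1 are shared with Ccdc85b on the opposite strand. The library kit keeps strand, but whether the counting used it is not given in the sources used here, and without it reads of both genes cannot be told apart. Ccdc85b was at 50.04 ± 5.33 CPM in siCtrl and 43.7 ± 5.90 CPM in siAldoa (SD, n = 3 each), with overlapping groups and a log2 fold change of -0.19 (limma, adjusted p = 0.190).

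Fosb and Fos, the members with a transactivation domain that respond most sharply to serum, were near the limit of detection. Fosb had 7, 9 and 4 reads in siCtrl and 8, 7 and 10 reads in siAldoa. Its summed reads gave a ratio of 1.25 with a 95% counting interval of 0.667 to 2.37. Fos had 2, 3 and 0 reads in siCtrl and 4, 0 and 3 reads in siAldoa, a ratio of 1.40 with a counting interval of 0.382 to 5.59. The groups overlapped for both genes, and the limma adjusted p was 0.647 for Fosb and 0.825 for Fos. These intervals cover counting error only, and a doubling of either gene lies within them.

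To compare the members with each other, CPM was divided by the length of all annotated exons of a gene in kb. On this scale the order in siCtrl was Fosl1 with 55.0 ± 1.31, Fosl2 with 24.2 ± 0.704, Jun with 19.9 ± 1.26, Jund with 10.4, Junb with 7.43, Egr1 with 2.96, Fosb with 0.290, Egr3 with 0.287, Egr2 with 0.211 and Fos with 0.194 CPM per kb. From Fosl1 to Fosb the ranges over the 3 siCtrl libraries of neighbouring genes did not overlap, while those from Fosb down to Fos did. Per kb of the first coding transcript of each gene, the ranges of Jund, 10.3 to 10.5, and Junb, 7.02 to 11.5 CPM per kb, did overlap, and Egr3 stood above Fosb. Fosl1 and Fosl2 together made up nearly all Fos family mRNA in both groups. The share of Fosl2 was 30.2%, 30.8% and 30.2% in siCtrl replicates 1, 2 and 3, and 45.9%, 49.8% and 47.6% in siAldoa. That of Fosl1 went from a mean of 69.0% ± 0.647 to 51.6% ± 1.65 (SD, n = 3 each). The level of Fosl1 was thus 2.27 ± 0.0445 times that of Fosl2 in siCtrl and 1.08 ± 0.0777 times in siAldoa. This ratio depends on the length used. Per kb of the first coding transcript, 6537 bases for Fosl2 and 1864 bases for Fosl1, it was 1.67 in siCtrl and 0.795 in siAldoa, so which of the genes led in siAldoa cannot be told from these values. Levels, shares and ratios also depend on how exons shared with opposite-strand genes were counted, which is not given. Of the exonic bases, 1163 of 2033 are shared in Fosl1 and 877 of 1668 in Jund.

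The summed Fos family level was 77.6, 80.8 and 80.8 CPM per kb in siCtrl and 95.5, 93.5 and 93.9 CPM per kb in siAldoa, with no overlap. The Jun family level was 37.7 ± 1.37 and 38.7 ± 0.549 CPM per kb (SD, n = 3 each), with overlapping groups. Fosl2 alone went from 24.2 to 45.0 CPM per kb, and Fosl1 from 55.0 to 48.6 CPM per kb.

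**Figure D2:**
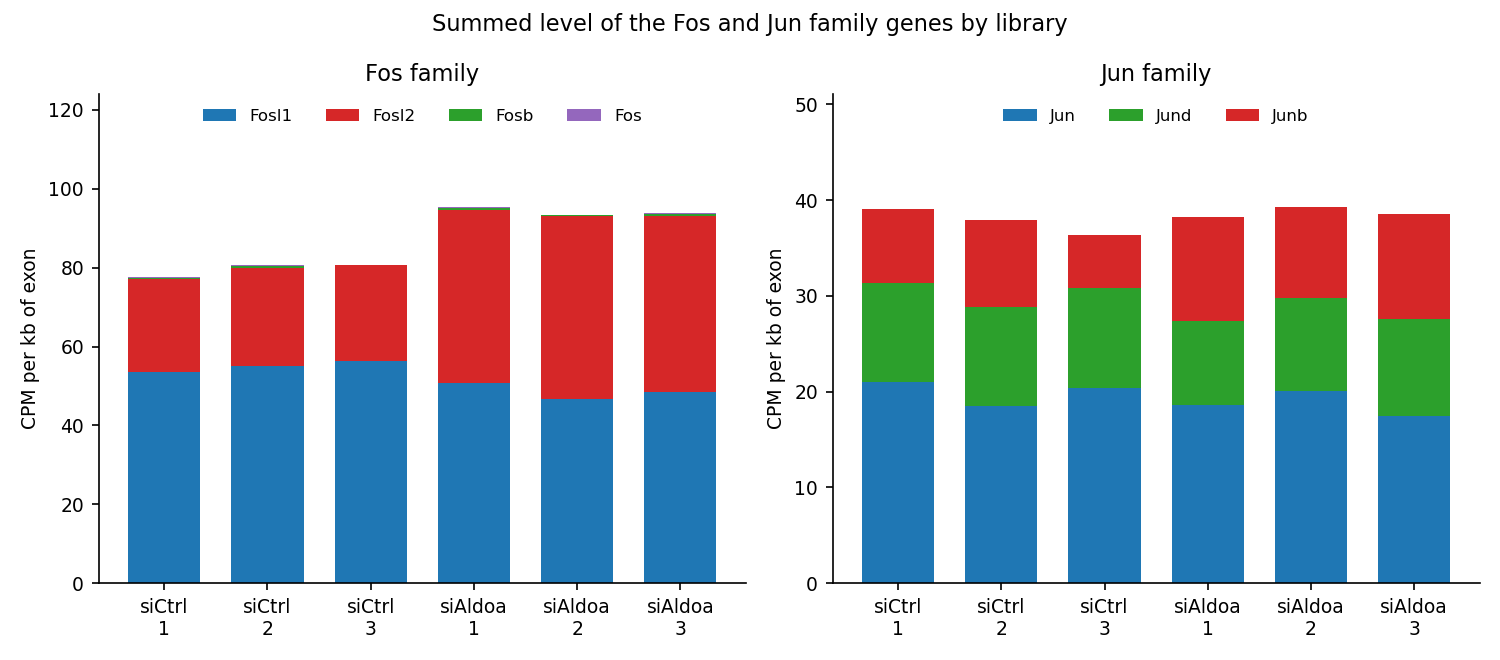
Summed level of the Fos family genes (left) and the Jun family genes (right) in each library, in CPM per kb of exon, with bars starting at 0 and colours for the genes. Fosl2 takes 30.2% to 30.8% of the Fos family level in siCtrl and 45.9% to 49.8% in siAldoa, and the Jun family total is at about the same height in both groups.

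Junb (ENSMUSG00000052837) encodes a Jun protein that is often a weaker activator than Jun and can oppose it. Its level was 17.8 CPM, 20.8 CPM and 12.7 CPM in siCtrl, and 25.1 CPM, 21.9 CPM and 25.4 CPM in siAldoa. No siCtrl library reached a siAldoa library, but the highest siCtrl and the lowest siAldoa library, both replicate 2, were close, and siCtrl replicate 3 was the lowest of all. The mean was 17.1 ± 4.09 CPM in siCtrl and 24.1 ± 1.93 CPM in siAldoa (SD, n = 3 each), and the log2 fold change was 0.50 with a standard error of 0.150 and an interval of 0.19 to 0.81 (limma, adjusted p = 0.0199). Here too the call was lost when most single libraries were left out. The limma adjusted p was 0.0592 and 0.152 without siCtrl replicate 1 or 3, and 0.118, 0.0532 and 0.128 without siAldoa replicate 1, 2 or 3. The log2 fold change dropped to 0.31 when siCtrl replicate 3 was left out, and to 0.27 when replicate 3 of both groups was (limma, adjusted p = 0.312). Without replicate 1 or 2 of both groups the limma adjusted p was 0.242 and 0.0723. The call was also lost with the replicate number as a block (limma, adjusted p = 0.0538), without the mean-variance trend (0.149) and with DESeq2 (0.0776). The gene lies at chr8:84974484-84978718 on the minus strand, and 173 of its 2301 exonic bases are shared with Prdx2 on the opposite strand. Prdx2 was at 103 ± 6.68 CPM in siCtrl and 109 ± 7.17 CPM in siAldoa (SD, n = 3 each; limma, adjusted p = 0.478).

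The promoter of Junb is shown because Junb was the only Jun gene called, and it was higher in siAldoa. RefSeq start sites of GRCm38.p6 were matched for 7 of the 10 genes, and the window of Fosl2 lies within its first exon and is not printed. The 250 bases before the Junb start, at chr8:84978749-84978998 on the minus strand, are given 5′ to 3′ with matches in capitals.
Junb: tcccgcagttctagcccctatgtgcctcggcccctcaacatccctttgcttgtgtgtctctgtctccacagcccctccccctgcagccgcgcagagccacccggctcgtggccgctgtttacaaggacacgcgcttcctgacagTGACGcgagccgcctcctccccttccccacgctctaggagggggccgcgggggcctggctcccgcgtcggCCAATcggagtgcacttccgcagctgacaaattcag
The first capitals are TGACG, the core of a CREB or ATF element, 106 bases before the start, and the second are CCAAT, 36 bases before it. Both strands were searched, and TGACG was found in 17.9% and CCAAT in 34.5% of windows of this length over 27025 genes. The full element TGACGTCA, which contains TGACG, the AP-1 site TGANTCA, the TATA box TATAAA, the GC box GGGCGG, the EGR site GCGNGGGCG, the E-box CACGTG and the CArG box that SRF binds had no match in this window. They occurred in 1.62%, 6.87%, 13.0%, 32.9%, 4.65%, 6.05% and 1.40% of all windows. These are matches of letters, not measured binding.

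Jun, the founding member and main partner of the Fos proteins, was at 66.8 CPM, 59.1 CPM and 64.8 CPM in siCtrl and at 59.4 CPM, 63.9 CPM and 55.8 CPM in siAldoa. The groups overlapped, and the log2 fold change was -0.09 with an interval of -0.25 to 0.07 (limma, adjusted p = 0.473). Jun lies at chr4:95049034-95052222 on the minus strand and shares 232 of its 3189 exonic bases with the antisense gene Junos. Junos was at 45.2 ± 2.71 CPM in siCtrl and 40.3 ± 1.57 CPM in siAldoa (SD, n = 3 each; limma, adjusted p = 0.215).

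Jund, a Jun protein with steady expression in many cell types, was at 17.3 CPM, 17.2 CPM and 17.5 CPM in siCtrl and at 14.6 CPM, 16.3 CPM and 16.8 CPM in siAldoa. All 3 siAldoa libraries were below the siCtrl libraries. Of the 10 genes 5 had groups without overlap, 2 higher and 3 lower, against 33.8% of all genes, 16.7% higher and 17.1% lower. The log2 fold change was -0.12 with an interval of -0.40 to 0.16 (limma, adjusted p = 0.614). Gm11175 shares 877 of the 1668 exonic bases of Jund on the opposite strand and was not analysed here. Within the summed Jun family level the share of Junb was 19.6% ± 4.33 in siCtrl and 27.1% ± 2.51 in siAldoa (SD, n = 3 each).

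Among the Egr genes, Egr1 alone had more than a few reads per library. Egr1 encodes the Egr factor that serum induces most readily in fibroblasts. It was at 13.7 CPM, 13.1 CPM and 13.0 CPM in siCtrl and at 11.3 CPM, 10.7 CPM and 13.1 CPM in siAldoa. The groups overlapped through siAldoa replicate 3, and the log2 fold change was -0.17 with an interval of -0.50 to 0.16 (limma, adjusted p = 0.520).

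Egr3, an Egr factor best known in muscle spindles and lymphocytes, had 6, 4 and 4 reads in siCtrl replicates 1, 2 and 3 and 2, 0 and 1 reads in siAldoa. All siAldoa libraries were below all siCtrl libraries, at 1.27 ± 0.327 CPM in siCtrl and 0.267 ± 0.270 CPM in siAldoa (SD, n = 3 each). The log2 fold change of CPM + 1 was -0.85 with a standard error of 0.267 (limma, adjusted p = 0.0248). The summed reads, 14 against 3, gave a ratio of 0.214 with a counting interval of 0.0395 to 0.768. Egr3 is thus a call on 17 reads in all. It was lost with edgeR (adjusted p = 0.0572). With limma it was lost without siCtrl replicate 1 or 2 (adjusted p of 0.101 and 0.0503) and without siAldoa replicate 2 or 3 (0.122 and 0.0705). Without replicate 1, 2 or 3 of both groups the limma adjusted p was 0.0867, 0.159 and 0.155. Egr2, which controls myelination in Schwann cells, had 4, 0 and 4 reads in siCtrl and 3, 3 and 6 reads in siAldoa, with a ratio of 1.5 and a counting interval of 0.564 to 4.23. The groups overlapped for Egr2 (limma, adjusted p = 0.525). The smallest p-value that an exact permutation test of 3 against 3 libraries can give is 0.1, and it was reached by Fosl1, Fosl2, Junb, Jund and Egr3.

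**Figure D3:**
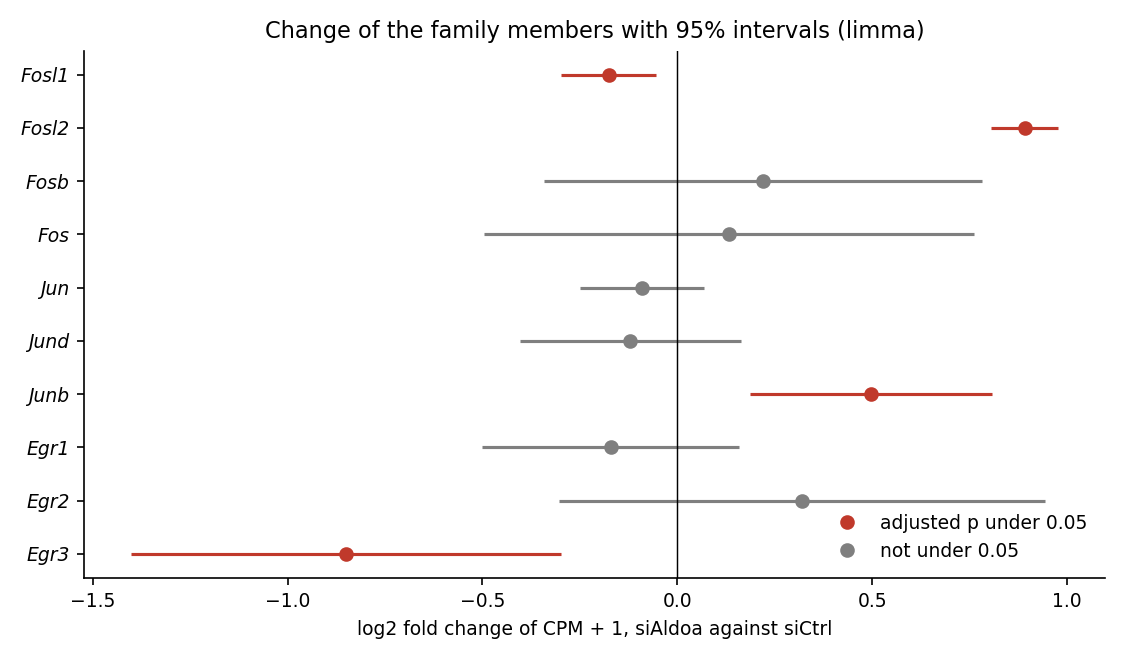
Log2 fold change of CPM + 1 between siAldoa and siCtrl for the 10 genes, with points for the limma estimates, lines for their 95% intervals and red for an adjusted p-value under 0.05. The interval of Fosl2 spans 0.81 to 0.98, and those of Fosb, Fos, Jun, Jund, Egr1 and Egr2 include 0.

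The profile of Fosl2 over the 6 libraries was set beside that of 10053 genes with a mean of at least 10 CPM, by the root mean square difference of log2(CPM + 1) after centring each gene. The nearest genes were Mpp1 with 0.0387, Flrt2 with 0.0528 and Thbd, the thrombin receptor thrombomodulin, with 0.0539. For Junb they were Isyna1 with 0.0826, Plekhm2 with 0.0938 and Slc2a10 with 0.101, and for Egr3 2610020C07Rik with 0.137, Nemp1 with 0.139 and Syne3 with 0.148. With 2 groups of 3 libraries such likeness is set mostly by the difference between the groups and the level of a gene.

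The genes around the 10 factors were counted by role. The lists held ligands, receptors, kinases, upstream factors, feedback genes, targets, other immediate early genes, AP-1 partners and heat shock genes. Of 133 measured genes of these lists, besides the 10 themselves, 45 were higher and 19 lower in siAldoa at a limma adjusted p-value under 0.05, which is 48.1%, and their median log2 fold change was 0.13. Of these genes 112 had a mean of at least 10 CPM, and the shares to read the counts of every list against are the 20.4% called over all genes and the 32.6% called among genes at that level. Of 9 growth factor ligands 2 rose and 1 fell. Ereg, the EGF receptor ligand epiregulin, rose from 58.0 ± 2.57 CPM to 147.6 ± 12.1 CPM, and Lif, a cytokine of the IL-6 family, from 15.3 ± 1.45 CPM to 24.7 ± 0.874 CPM. Nrg1, a ligand of ERBB receptors, fell from 132 ± 2.46 CPM to 116 ± 0.919 CPM. The Nrg1 call was lost without siCtrl replicate 1 (limma adjusted p = 0.0603) or siAldoa replicate 1 (0.0503). Of 12 receptors 4 rose and 1 fell. Pdgfrb rose from 22.2 ± 2.31 CPM to 49.9 ± 3.64 CPM, Egfr from 8.12 ± 0.422 CPM to 16.4 ± 2.21 CPM and Pdgfra from 34.0 ± 2.05 CPM to 48.5 ± 0.368 CPM. Met, the receptor of hepatocyte growth factor, fell from 277 ± 3.17 CPM to 222 ± 5.53 CPM. All are means with SD of 3 libraries.

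Of 23 genes of the MAP kinase cascade 1 was higher and 3 were lower, with a median log2 fold change of -0.02. This is 17.4%, against 20.4% of all genes. Braf, a kinase that activates MEK, had a log2 fold change of 0.39. Grb2, which encodes an adaptor between receptors and the cascade, had -0.18. The Grb2 call was lost without any single library, with limma adjusted p-values of 0.0560 to 0.199. Of 8 genes for ternary complex, SRF coactivator and CREB factors 1 was called, or 12.5%. This was Crem, a CREB relative with activating and repressing forms, which rose from 11.8 ± 3.06 CPM to 21.5 ± 4.09 CPM (SD, n = 3 each). Srf itself was not analysed here. Without replicate 3 of both groups, 2 libraries against 2, limma called 1 ligand, 2 receptors, 1 gene of the cascade, none of the upstream factors and 5 feedback inhibitors. Over all 18001 genes this setting called 1014, against 3676 with all libraries. In the list of upstream factors 2 were called without siCtrl replicate 1.

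Other genes that serum induces at once were counted beside the 10. Of 28 such immediate early genes measured, 15 were higher and 4 lower, 67.9% in all, with a median log2 fold change of 0.32. Over all genes 20.4% were called, and 32.6% among those with a mean of at least 10 CPM, which 24 of the 28 reached. The lists were chosen with earlier results of these data known, so this share does not test for an excess. Without replicate 1, 2 or 3 of both groups 9, 9 and 13 of the 28 genes were called. Over all 18001 genes these settings called 1432, 1320 and 1014, against 3676 with all libraries. Ptgs2, which encodes cyclooxygenase 2, rose from 299.7 ± 8.74 CPM to 872 ± 20.7 CPM, and Ier3 from 36.6 ± 3.61 CPM to 96.4 ± 3.75 CPM (SD, n = 3 each). The orphan nuclear receptor gene Nr4a3 went from 0.623 ± 0.606 CPM to 3.20 ± 0.962 CPM (SD, n = 3 each). The siCtrl mean of Nr4a3 lay below the CPM that 3 reads stood for. The growth factor response genes Ier2, Myc and Plk2 fell, with log2 fold changes of -0.47, -0.29 and -0.23. The limma calls of Nr4a3, Ier2 and Myc were lost without replicate 1 and without replicate 2 of both groups. Egr4 and Atf3 were not analysed here.

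Of 18 feedback inhibitors 7 were higher and 3 lower, with a median of 0.04. Dusp1, a nuclear phosphatase of MAP kinases and itself an immediate early gene, rose from 31.7 ± 2.32 CPM to 94.5 ± 6.42 CPM (SD, n = 3 each). Dusp4, another nuclear phosphatase, had a log2 fold change of 0.87, Dusp8 one of 0.55 and the cytoplasmic ERK phosphatase gene Dusp6 one of 0.31. The Dusp6 call was lost without siCtrl replicate 1 or 3 (limma adjusted p of 0.0845 and 0.0514) and without siAldoa replicate 1 or 3 (0.113 and 0.0685). Dusp5, a nuclear phosphatase of ERK, fell from 36.1 ± 5.53 CPM to 22.0 ± 1.18 CPM (SD, n = 3 each). Nab2 and Nab1, the corepressors of Egr factors and also known Egr targets, fell as well, from 79.6 ± 1.16 CPM to 55.5 ± 1.46 CPM and from 142 ± 2.29 CPM to 115 ± 5.996 CPM (SD, n = 3 each).

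Of 9 further partners of AP-1 proteins 3 were higher and 1 lower. The small Maf genes Maff, Mafg and Mafk rose, with log2 fold changes of 0.79, 0.56 and 0.32, and Atf4 fell, with -0.24. Maff is also counted among the other immediate early genes.

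Of 14 genes known as AP-1 targets 8 were higher and 4 lower, with a median of 0.20. Without replicate 3 of both groups 5 of them were called, against 1014 of all 18001 genes. The proliferin genes Prl2c2 and Prl2c3 rose from 3.97 ± 0.682 CPM to 49.2 ± 3.00 CPM and from 4.60 ± 0.291 CPM to 43.6 ± 2.93 CPM (SD, n = 3 each). They are near-identical copies, so the split of reads between them is uncertain, and the 8 higher genes count both. Ptgs2, which is also counted among the other immediate early genes, was the next highest. Ccnd1, which encodes cyclin D1, fell from 304 ± 14.2 CPM to 218 ± 6.06 CPM (SD, n = 3 each), and the intermediate filament gene Vim had a log2 fold change of -0.22. Fosl1, which is one of the 10 genes, is also in this list and is one of its 4 lower genes.

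Of 10 genes known as Egr targets 3 were higher and 2 lower, with a median of -0.05. Without replicate 3 of both groups 1 of these targets was called, against 1014 of all 18001 genes. The 2 lower targets were Nab1 and Nab2. F3, which encodes tissue factor, and the matrix gene Thbs1 had log2 fold changes of 0.48 and 0.18. The F3 call was lost without siAldoa replicate 1 (limma adjusted p = 0.0523). Of 9 heat shock genes, counted because stress also acts on AP-1 genes, 3 were higher and 3 lower. Hspa1b had a log2 fold change of 0.80 and Hsp90aa1 one of -0.30. Their part in the values of the 10 genes was not tested.

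**Figure D4:**
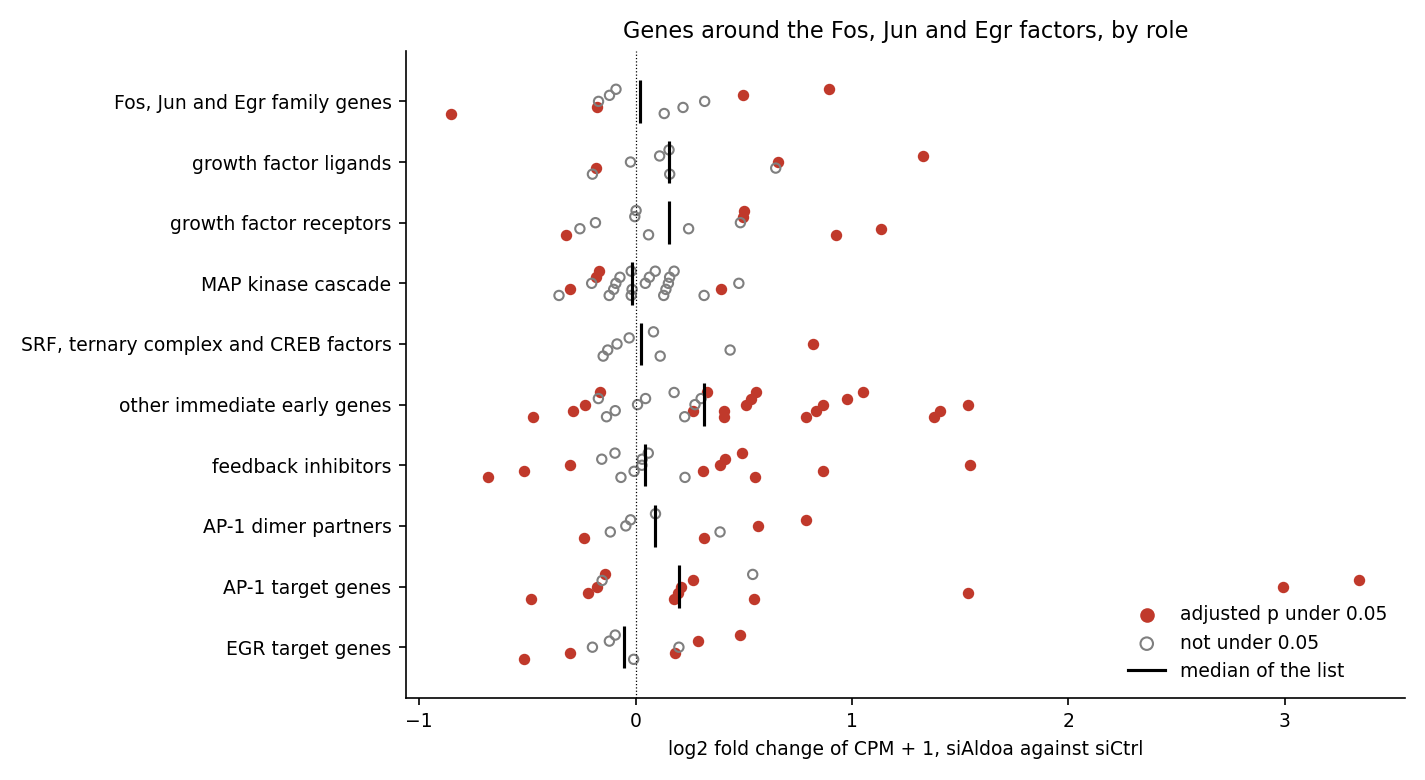
Log2 fold change of CPM + 1 between siAldoa and siCtrl for every gene of each list in the table, with filled red points for a limma adjusted p-value under 0.05, open grey points for the others and a black line at the median of the list. The other immediate early genes have a median of 0.32 and the MAP kinase cascade one of -0.02.

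Markers of the fibroblast state also differed between the groups, with 4 of 11 higher and 5 lower. Col1a2 had a log2 fold change of -0.44, Col1a1 of -0.33 and Fn1 of 0.30. Of the 10 markers of other cell types Csf1r, a macrophage marker, was higher at 7.91 ± 0.666 CPM against 0.992 ± 0.415 CPM (SD, n = 3 each). The epithelial genes Cdh1 and Krt8 were called lower, with log2 fold changes of -1.01 and -0.86. These calls were lost without siCtrl replicate 2 or siAldoa replicate 1 or 3 for Cdh1 (limma adjusted p of 0.0584 to 0.0677) and without any siCtrl replicate or siAldoa replicate 2 or 3 for Krt8 (0.0554 to 0.225). Both were also lost without the mean-variance trend. The Krt8 call was lost with edgeR, quantile normalization and the replicate block as well. The other 7 markers were not called, and the median log2 fold change of the list was -0.63. Among them the macrophage marker Cd68 was at 2.70 ± 1.17 CPM in siCtrl and 1.34 ± 0.716 CPM in siAldoa, and Adgre1 at 1.08 ± 0.442 CPM and 0.797 ± 0.257 CPM (SD, n = 3 each). The leukocyte marker Ptprc and the endothelial markers Pecam1 and Cdh5 had mean levels of 1.54, 2.62 and 1.54 CPM in siCtrl and 1.24, 1.33 and 0.715 CPM in siAldoa. The part of these differences in the values of the 10 genes was not tested.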

How the data were processed

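Reads from poly(A) libraries (NEBNext Ultra Directional) were aligned to mm10 with Bowtie2 (version 2.2.7), subsampled to equal numbers and counted per gene by the authors, who deposited CPM. A filter at 12 reads is described, yet 1834 genes of the table held fewer. The authors' own table of fold changes and p-values was not used. ERCC RNA was added before extraction for replicate 1 and after it for the others, and is not used here.

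The test was limma's (version 3.58.1, in R version 4.3.3), two-sided and with its mean-variance trend, on log2 of CPM plus a pseudocount of 1. P-values were adjusted by Benjamini-Hochberg over 18001 genes. Reads were recovered from CPM (100% of values whole within 0.001) and tested with edgeR (version 4.0.16) and DESeq2 (version 1.42.0) as alternatives. edgeR called 3786 genes. Genes were placed by GENCODE (GRCm38), which held 17932 of the 18001 identifiers, and compared with blastn (version 2.17.0). The 10 genes and all lists were chosen with earlier results of these data known. From each list the text names at most the 3 lowest and 3 highest called genes whose groups do not overlap, plus Nab1, Nab2, Srf, Atf3, Egr4, Dusp1, Dusp6 and Myc. Col5a1, Hsph1, Hspa8, Hspd1 and Hspe1, which the rule covers, are left out, some further genes are not reported here, and Krt8, Cd68, Adgre1, Ptprc, Pecam1 and Cdh5 were added after their values were seen.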

Additional observations from a re-analysis of the deposited data

How the results depend on the processing

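Fosl2 was called under all 17 alternatives, with limma adjusted p-values of up to 0.00687, and no alternative turned the direction of the 4 called genes. The number of the 10 genes called, 4, fell to 1 with DESeq2 (Fosl2, while Fos, Fosb, Egr2 and Egr3 had no adjusted p-value), to 2 without the mean-variance trend and to 2 with the replicate block (Fosl2 and Egr3 in both). It lay between 1 and 3 when libraries were left out. Those called higher were 1 under each of these 3 settings and 1 to 2 with libraries left out. Those called lower were 0 with DESeq2, 1 with edgeR, 1 with a filter on low values that removed Fos, Egr2 and Egr3, 1 without the trend, 1 with the replicate block and 0 to 2 with libraries left out. With the replicate block, limma's adjusted p was 0.0538 for Junb and 0.0624 for Fosl1. After the group mean was taken off, libraries with the same number correlated over genes with 0.0797 and 0.0781 for replicates 1 and 2 and with 0.279 for replicate 3, whose correlations with the other numbers were -0.211 to -0.115. Deviations from a group mean cancel out over its libraries, so these negative values are not separate evidence. By the value of 0.279, replicate 3 deviated weakly alike in both groups, while siCtrl replicate 2 correlated best with siAldoa replicate 1 (0.155). Of the genes around them, 64 were called, 34 without the trend and 33 to 59 with libraries left out. Over all genes 3676 were called, 2183 with DESeq2 and 3170 with the replicate block. It was 1440 genes without the trend and 1014 to 2813 with libraries left out. The log2 fold change changed sign for genes of few reads. It ranged from -0.22 to 0.63 for Fos, from -0.0777 to 0.46 for Fosb and from -0.0319 to 0.59 for Egr2 with libraries left out. Of the other named genes, Lif, Nrg1, Egfr, Pdgfra, Grb2, Crem and Dusp6 were not called by limma without replicate 3 of both groups. Neither were Dusp8, Nab1, Mafk, F3, Thbs1, Cdh1 and Krt8. Nrg1, Grb2, Dusp6, Dusp8, Mafk and F3 were also not called without replicate 1 and without replicate 2. Crem, Thbs1 and Cdh1 were also lost without replicate 1, and Krt8 without replicate 2. Ier2, Myc and Nr4a3 were called without replicate 3 but not without replicate 1 or without replicate 2. TMM scaling of the recovered reads gave the deposited values again.

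Depth limits the members with few reads. Fos, Fosb, Egr2 and Egr3 had 12 to 45 reads over all libraries, and the pools of siRNAs were not compared singly. The lists hold well-known genes and are not complete.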
